A study of Mus musculus with 6 samples.

Results

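RNA was sequenced from control OT-I CD8+ T cells recovered from pancreatic tumours, the cells that carried a non-targeting guide (sgNT) and so kept the fatty acid elongase gene Elovl1 intact. These sgNT samples were chosen by their titles and are 3 of the 6 libraries of the series. The other 3, from cells with a guide against Elovl1 (sgElovl1), are used here only to check the labels. The donor strain, OT-I:Rosa26-Cas9, was bred from Rag2/OT-I and Rosa26-Cas9 mice on C57BL/6J. Their T cells carry a transgenic T cell receptor (TCR) for an ovalbumin peptide on H2-Kb and express the Cas9 nuclease constitutively, in the controls as well. CD8+ T cells were activated in culture with CD3/CD28 beads, expanded in IL-2, IL-7 and IL-15, and transduced with a lentiviral vector whose reporter is CD90.1. They were then transferred into mice bearing orthotopic tumours of KPC_OVA, a mouse pancreatic cancer line made to express the ovalbumin peptide. The mice of the study were 6 to 12 weeks old, of either sex. Anti-PD-1 treatment began on the next day, and CD90.1+ cells were sorted from the primary tumour 7 days after transfer. Each sgNT library holds the cells of 1 tumour in 1 mouse, whereas the RNA of sgElovl1 1 and 2 was pooled from 2 tumours each. The population thus has a single receptor specificity, was activated before transfer, and has no counterpart without anti-PD-1 in these data.

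CD8+ T cells that meet their antigen become cytotoxic effectors, which store perforin and granzymes in granules and secrete interferon-γ and chemokines. In tumours, lasting antigen contact leads to exhaustion, a state known for inhibitory receptors such as PD-1 and TIM-3 and for the transcription factor TOX. A smaller precursor pool that keeps TCF-1 (the product of Tcf7) and SLAMF6 renews the exhausted cells. Activated T cells are also known for high glycolysis and for a demand for lipids that serves membrane growth.

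Levels are given in TPM, a unit in which reads are divided by transcript length and each library is scaled to the same total, so that genes can be compared with each other. Values are listed for sgNT 1, 2 and 3 in that order, and means are given with the SD (n = 3). Libraries of 1 condition were described and not tested against each other, since 3 samples without groups allow no test. The libraries held 24121976, 26165380 and 25564484 expected counts, and 10755 genes reached a mean of 1 TPM, 6189 of 10 TPM, 1643 of 100 TPM and 144 of 1000 TPM. The 100 most abundant genes took 34.8%, 33.4% and 36.0% of all TPM. As a check of the labels, Elovl1 (chromosome 4, 118428093 to 118432953, plus strand, GRCm38) stood at 274.6, 286.2 and 236.5 TPM in the sgNT libraries and at 89.6, 89.1 and 101.1 TPM in the sgElovl1 libraries, with no overlap.

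The 3 libraries were close but not alike, and sgNT 3 stood apart. The biological coefficient of variation estimated by edgeR was 0.192, and 0.136 without sgNT 3. Across the 10755 genes the median SD of log2(TPM + 1) was 0.183, 71.8% of genes varied by less than 1.5-fold between the highest and lowest library, and 10.8% by more than 2-fold. On principal component analysis, component 1 (71.0% of variance) separated sgNT 3 from the others and component 2 (29.0%) separated sgNT 1 from sgNT 2. With 3 libraries only 2 components exist and they hold all the variance, so this separation is no test of whether 1 library stands apart. Pearson's r across genes, which are not independent replicates, was 0.986 for sgNT 1 and 2, 0.972 for sgNT 1 and 3 and 0.969 for sgNT 2 and 3. sgNT 3 also carried marker RNA of the tumour epithelium: its 9 markers summed to 38.4, 32.1 and 763.9 TPM. The share of this RNA in the other differences of sgNT 3 was not tested. Any gene had some library as its highest, and over the 10755 genes this was sgNT 1 for 27.5%, sgNT 2 for 48.9% and sgNT 3 for 23.7%. sgNT 3 was the lowest library for 51.2%. Counts of list members below are to be read against these shares.

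With ribosomal protein, mitochondrial and predicted genes left aside, genes of the TCR and of cytotoxic granules were among the most abundant. Trac, the constant region of the TCR α chain (chromosome 14, 54220521 to 54224206, plus strand), had the highest mean TPM of all genes, at 22001, 21352 and 20464 TPM. Tmsb4x, which encodes the actin-sequestering thymosin β4, was next at 22989, 17198 and 20260 TPM, a range that spans that of Trac. Nkg7, a granule membrane protein of cytotoxic lymphocytes (chromosome 7, 43437073 to 43438249, plus strand), followed at 17700, 18774 and 18987 TPM, below Trac in every library. This order of Trac and Nkg7 rests on the effective transcript lengths behind TPM. Trac had 85433, 91060 and 83545 expected counts over a deposited length of 454 bases. Nkg7 had 192948, 213908 and 220479 over 752 bases. By counts per deposited length, Nkg7 was above Trac in every library. The 30 highest named genes included further cytotoxic and T cell genes: Gzmb (7484 ± 3235 TPM), the chemokines Ccl5 (6900 ± 565 TPM) and Ccl4 (4205 ± 416 TPM), Cd52 (7748 ± 1692 TPM), Ms4a4b (4653 ± 164 TPM), Trbc2 (7553 ± 543 TPM) and Cd3g (3314 ± 152 TPM). The MHC class I genes B2m (8765 ± 1296 TPM), H2-D1 (5281 ± 67.3 TPM) and H2-K1 (4066 ± 136 TPM) were in the same range. Most of the remaining genes encode actin and its regulators (Pfn1, Actb, Arhgdib, Myl6, Actg1) or glycolytic enzymes (Gapdh, Eno1, Ldha, Aldoa). Gzmb had the widest spread of the 30, with an SD of 0.58 on the log2 scale, and H2-D1 the narrowest at 0.02.

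**Figure D1:**
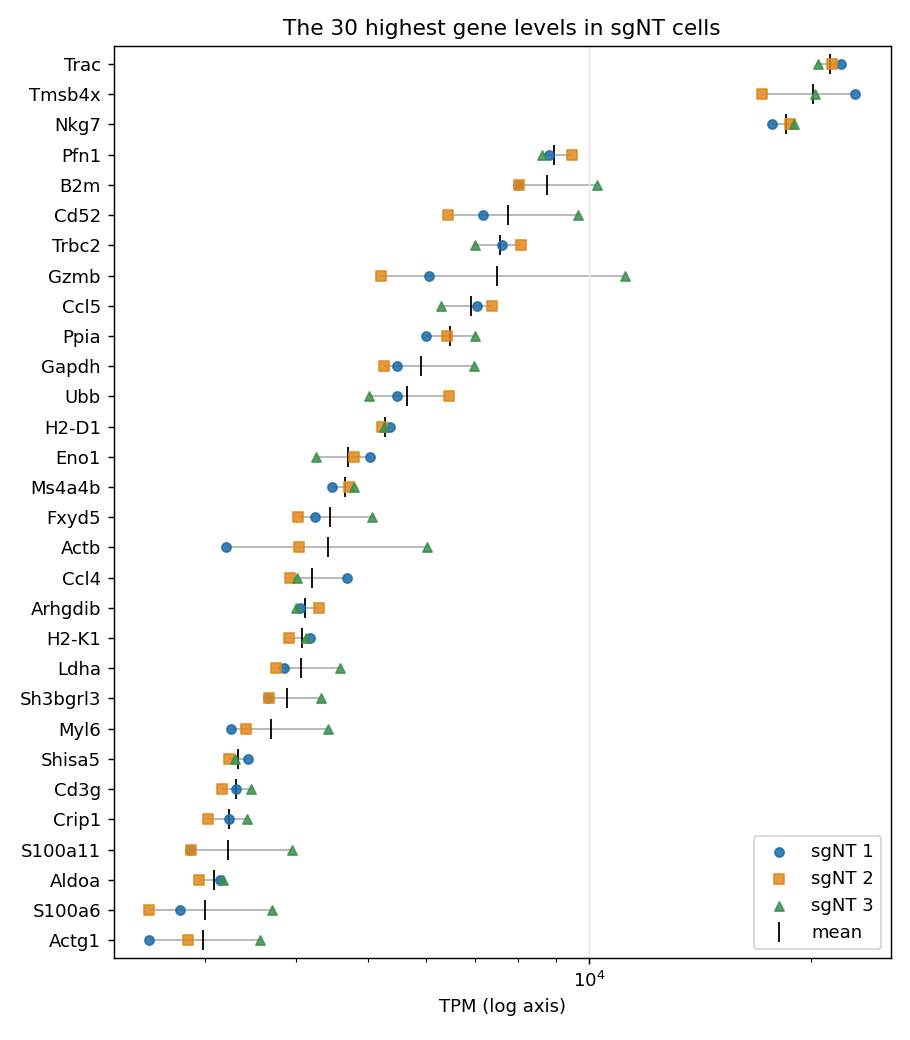
TPM on a log axis of the 30 named genes with the highest mean in sgNT cells. Each symbol is 1 library, the vertical tick is the mean and the grey line joins the lowest to the highest library. Trac, Tmsb4x and Nkg7 lead, and Gzmb in sgNT 3 (11188 TPM) lies to the right of the other libraries.

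Genes of the TCR and of CD8 matched the label of the sorted cells. All 9 genes of the receptor complex and CD8 were above 100 TPM in the mean, and their sum was 39855, 39455 and 37335 TPM, or 3.89% of all TPM. The CD8 chains Cd8b1 and Cd8a were at 1414 ± 65.1 and 1235 ± 55.0 TPM, while Cd4 was at 0, 0.44 and 0.17 TPM. Of the variable segments, the Trav14 family took 97.3%, 97.3% and 97.6% of Trav counts and the Trbv12 family 99.8%, 99.8% and 99.6% of Trbv counts. Trav14n-1 and Trav14d-1 have the same sequence in every 100-base window, so that counts cannot be assigned between them, and the family is given as a whole. Trbc2 exceeded Trbc1 (2128 ± 170 TPM) 3.55-fold, although 30.9% of the 100-base windows of Trbc2 also occur in Trbc1.

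Below the receptor, the kinase Lck stood at 1471, 1464 and 1137 TPM and the adaptor Lat at 951.2, 920.7 and 747.9 TPM. Zap70, the kinase that binds the phosphorylated CD3 chains, was lower at 131.6, 153.3 and 94.6 TPM, and the inhibitory receptor Cd5 reached 94.4, 111.9 and 63.1 TPM. All 4 were lowest in sgNT 3, as were 11 of the 15 members of the proximal signalling list, against 51.2% of all genes. The list summed to 5830, 6022 and 5023 TPM. Thy1 was at 156.9, 165.1 and 176.9 TPM, and reads of the vector's CD90.1 reporter, an allele of this gene, were not separated from its own.

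Cytotoxic granule genes summed to 31651, 31544 and 40176 TPM, so sgNT 1 and 2 were nearly equal and sgNT 3 was 1.27-fold above their mean. Granzymes are the serine proteases of these granules, and perforin (Prf1) opens the way for them into the target cell. Gzmb stood at 6053, 5210 and 11188 TPM, and sgNT 3 was 1.99-fold above the mean of the others. Gzma followed at 1431, 1238 and 2570 TPM, in the same order of libraries. The ratio of Gzmb to Gzma was therefore steady at 4.26-fold (log2 2.09 ± 0.03). Gzmk, which is common in less differentiated CD8 T cells, varied little, at 533.7, 589.9 and 636.9 TPM.

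The granzymes next to Gzmb in the genome were rarer and spread more widely. Gzme, Gzmd, Gzmg, Gzmn, Gzmf, Gzmc and Gzmb lie in this order on chromosome 14 between 56117626 and 56262260, all on the minus strand. Gzma and Gzmk are on chromosome 13, and Gzmm is on chromosome 10. Gzmc was at 45.4, 24.6 and 140.7 TPM, 4.02-fold above the mean of the others in sgNT 3. Gzmf reached 14.1, 6.38 and 62.3 TPM and Gzmd 5.55, 3.65 and 20.0 TPM, with the same order of libraries and 6.08-fold and 4.35-fold more in sgNT 3. Gzme (2.31, 1.05 and 9.66 TPM) followed this order, whereas Gzmg stayed under 1 TPM in every library. These mRNAs share less than 1% of their 100-base windows with any other gene, so that reads of this length can be told apart between them.

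Promoters of 3 genes of this cluster are shown to place the abundant and the rare members side by side. They are RefSeq windows on GRCm38.p6 from 250 bases before to 50 bases after the start site, and capitals mark the matches described after them. Gzmb is at chr14:56262285-56262584, Gzmc at chr14:56234608-56234907 and Gzmf at chr14:56211358-56211657, all read on the minus strand.
Gzmb: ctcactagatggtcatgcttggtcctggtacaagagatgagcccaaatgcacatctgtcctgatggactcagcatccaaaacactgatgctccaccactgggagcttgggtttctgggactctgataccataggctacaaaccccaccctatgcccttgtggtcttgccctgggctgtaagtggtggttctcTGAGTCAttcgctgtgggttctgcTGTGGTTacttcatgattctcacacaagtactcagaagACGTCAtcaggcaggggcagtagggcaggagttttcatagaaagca
Gzmc: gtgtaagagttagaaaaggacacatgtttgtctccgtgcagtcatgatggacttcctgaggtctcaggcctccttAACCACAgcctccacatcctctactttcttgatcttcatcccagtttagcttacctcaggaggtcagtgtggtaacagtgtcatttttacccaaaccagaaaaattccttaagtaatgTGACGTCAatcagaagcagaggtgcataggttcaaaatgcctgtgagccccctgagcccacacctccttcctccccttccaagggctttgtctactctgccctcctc
Gzmf: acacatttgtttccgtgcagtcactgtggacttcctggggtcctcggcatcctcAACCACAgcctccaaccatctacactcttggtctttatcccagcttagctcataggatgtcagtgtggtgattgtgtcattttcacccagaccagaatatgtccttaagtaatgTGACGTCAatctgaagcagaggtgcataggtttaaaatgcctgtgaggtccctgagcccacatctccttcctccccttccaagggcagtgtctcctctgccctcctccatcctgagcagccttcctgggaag
All motifs were searched on both strands. For the T-box factors, such as T-bet and Eomes, the letters sought were TCACACC. For RUNX factors, which act throughout the T cell lineage, they were TGTGGTT. For AP-1, the dimers of Jun and Fos proteins, they were TGANTCA. For the ETS family of factors they were CCGGAAGT. For the cyclic AMP response element, bound by CREB and its relatives, they were TGACGT. The common core promoter element known as the TATA box was sought as TATAAA. The RUNX letters were found in 7 of the 8 granzyme windows in the table and in 5.27% of all 32851 promoters. In Gzmb it lies 34 bases before the RefSeq start site, and TGANTCA, held by 7.81% of promoters, lies at 58 bases before it. The Gzmb window lies wholly outside the gene of GENCODE M21, whose start on the minus strand is at 56262260. Both distances would be longer from that start. Among the granzymes only the Gzmb window held TGANTCA. The CRE letters occurred in 4 of the 8 windows and in 7.51% of promoters. In Gzmc and Gzmf it is found on both strands, in overlapping matches that begin 57 and 82 bases before the start site. The windows of Gzmc, Gzmd, Gzme, Gzmf and Gzmg are near copies, with 87.4% to 94.0% identity over at least 273 aligned bases, so their matches are not independent. The T-box letters, in 3.98% of promoters, were found in 1 granzyme window, and those of the TATA box (13.6% of promoters) and ETS (3.89%) in 0 of 8. The Nkg7 window held a TCACACC match on the opposite strand 13 bases before its start site. A match describes letters only and shows no binding.

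Other granule genes varied less. Prf1 was at 835.7, 746.6 and 880.5 TPM and the granule proteoglycan Srgn at 1600, 1567 and 2043 TPM. Serpinb9, which protects the cell from its own granzyme B, stood at 111.0, 133.4 and 168.3 TPM. Of the 18 granule genes of at least 1 TPM, 16 were highest in sgNT 3, against 23.7% of all genes. Without sgNT 3, the list averaged 31598 ± 75.7 TPM (n = 2).

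Chemokines made up most of the secreted products, whose 22 genes summed to 17306, 16382 and 15487 TPM. Ccl5 was at 7040, 7382 and 6279 TPM and Ccl4 at 4682, 3920 and 4013 TPM, both chemoattractants of leukocytes. Xcl1, which attracts XCR1+ dendritic cells, was at 1291, 1340 and 964.3 TPM, and Ccl1 at 1222, 1153 and 1215 TPM. Ifng stood at 447.2, 328.1 and 469.9 TPM and Fasl, the death ligand, at 418.8, 372.9 and 302.9 TPM. The other classical effector cytokines were scarce: Tnf had 7.56, 8.31 and 7.03 TPM, and Il2 had 0.3, 0.62 and 0.32 TPM from 6, 13 and 7 counts. Ifng was thus far above Tnf in every library, and Il2 rested on few counts. Spp1, which encodes the secreted protein osteopontin, was at 543.4, 306.4 and 980.5 TPM and was highest in sgNT 3. Ltb (lymphotoxin β) showed the reverse, with 697.0, 639.0 and 333.7 TPM.

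Inhibitory receptors were high, and their sum was steady. The 17 genes of receptors and ectoenzymes summed to 3826, 3808 and 3682 TPM, a coefficient of variation of 2.08%. Single members varied about as much as other genes. Their median SD of log2(TPM + 1) was 0.169, against 0.183 over all genes of at least 1 TPM. Pdcd1, which encodes PD-1, led at 1022, 1109 and 959.1 TPM, followed by Ctla4 at 789.9, 691.8 and 874.6 TPM. Tigit (398.0 ± 57.3 TPM) and Cd160 (374.8 ± 27.6 TPM) overlapped in their ranges. Havcr2, which encodes TIM-3, was at 273.6, 285.5 and 252.5 TPM, and the ratio of Pdcd1 to Havcr2 was 3.81-fold (log2 1.93 ± 0.03). Entpd1, the ectonucleotidase CD39, stood at 137.1 ± 17.5 TPM and Cd38 at 80.0 ± 6.11 TPM. Lag3 was far below the genes named so far, at 16.8, 14.4 and 14.3 TPM. Other members were in its range or lower, namely Cd101 (14.0 ± 2.68 TPM), Lair1, Cd274 and Btla (5.80 ± 2.02 TPM). Among Pdcd1, Ctla4, Tigit, Cd160, Havcr2 and Lag3, the order Pdcd1, Ctla4, then Tigit or Cd160, then Havcr2 and last Lag3 held in every library.

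Costimulatory receptors of the TNF receptor family were as abundant. Tnfrsf9 (4-1BB) was at 1350, 1302 and 1663 TPM, Tnfrsf18 (GITR) at 1011, 1027 and 1017 TPM and Tnfrsf4 (OX40) at 590.1, 524.3 and 518.6 TPM. Cd27 stood at 574.9, 502.3 and 409.5 TPM. The sum over the 12 costimulatory genes had the lowest coefficient of variation of the 33 lists, at 5306 ± 22.5 TPM. The median SD of log2(TPM + 1) of its members was 0.191, close to that of all genes. Cd28 reached 80.5 ± 8.56 TPM and Cd40lg 0.74 ± 0.33 TPM.

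The 21 effector and exhaustion transcription factors summed to 3146, 3220 and 2781 TPM, led by Id2. Not all of them exceeded the factors of the memory list. Of the latter, Foxp1 (44.9 ± 7.31 TPM) and Satb1 (36.6 ± 2.13 TPM) were above Prdm1 and Eomes. Id2, an inhibitor of E proteins that favours effector differentiation, was at 1091, 1011 and 940.9 TPM, whereas its memory counterpart Id3 had 1.59, 1.99 and 1.7 TPM, a ratio of 578-fold (log2 9.17). Id3 is near the floor, and with a pseudocount of 1 TPM the log2 ratio was 8.52. Tbx21 (T-bet) stood at 133.4, 131.9 and 121.4 TPM and Eomes at 14.3, 15.4 and 10.8 TPM, so T-bet was 9.63-fold above Eomes. Bhlhe40 (446.1 ± 19.0 TPM), Nr4a1 (266.4 ± 35.9 TPM), Nr4a2 (252.6 ± 18.4 TPM) and Batf (235.2 ± 49.9 TPM), which are induced by TCR signals, were the next highest of the list. Tox, the factor of exhausted cells, was lower and varied, at 38.9, 66.2 and 21.8 TPM. Its relative Tox2 had 5.61, 18.2 and 4.04 TPM, with the same order of libraries. Prdm1 (Blimp-1) was at 17.5 ± 1.38 TPM and Irf4 at 8.87 ± 0.34 TPM.

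Memory and precursor genes were low. The 17 members summed to 349.8, 414.2 and 258.5 TPM, or 0.034% of all TPM, and no member reached 100 TPM in the mean. The chemokine receptor Ccr7, which guides T cells to lymph nodes, led the list at 86.4, 111.9 and 62.1 TPM. Slamf6 had 59.3, 84.9 and 30.9 TPM and Tcf7 had 12.3, 15.1 and 4.95 TPM. Both were highest in sgNT 2 and lowest in sgNT 3. The same order was seen for S1pr1 (10.8, 18.2 and 4.88 TPM), which directs exit from tissue. In sgNT 3 these 4 genes, Ccr7 included, were at 0.34-fold to 0.63-fold of the mean of the others. Il7r, the receptor for the survival cytokine IL-7, ran the other way, at 12.3, 6.78 and 16.1 TPM. Of the 17 members, 11 were highest in sgNT 2 (48.9% of all genes) and 11 were lowest in sgNT 3 (51.2% of all genes). Tox exceeded Tcf7 3.94-fold (log2 1.98 ± 0.27), with log2 ratios of 1.67, 2.13 and 2.14 in sgNT 1 to 3, and both genes were lowest in sgNT 3. In bulk RNA, fewer cells that express a gene and less RNA per cell cannot be told apart.

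**Figure D2:**
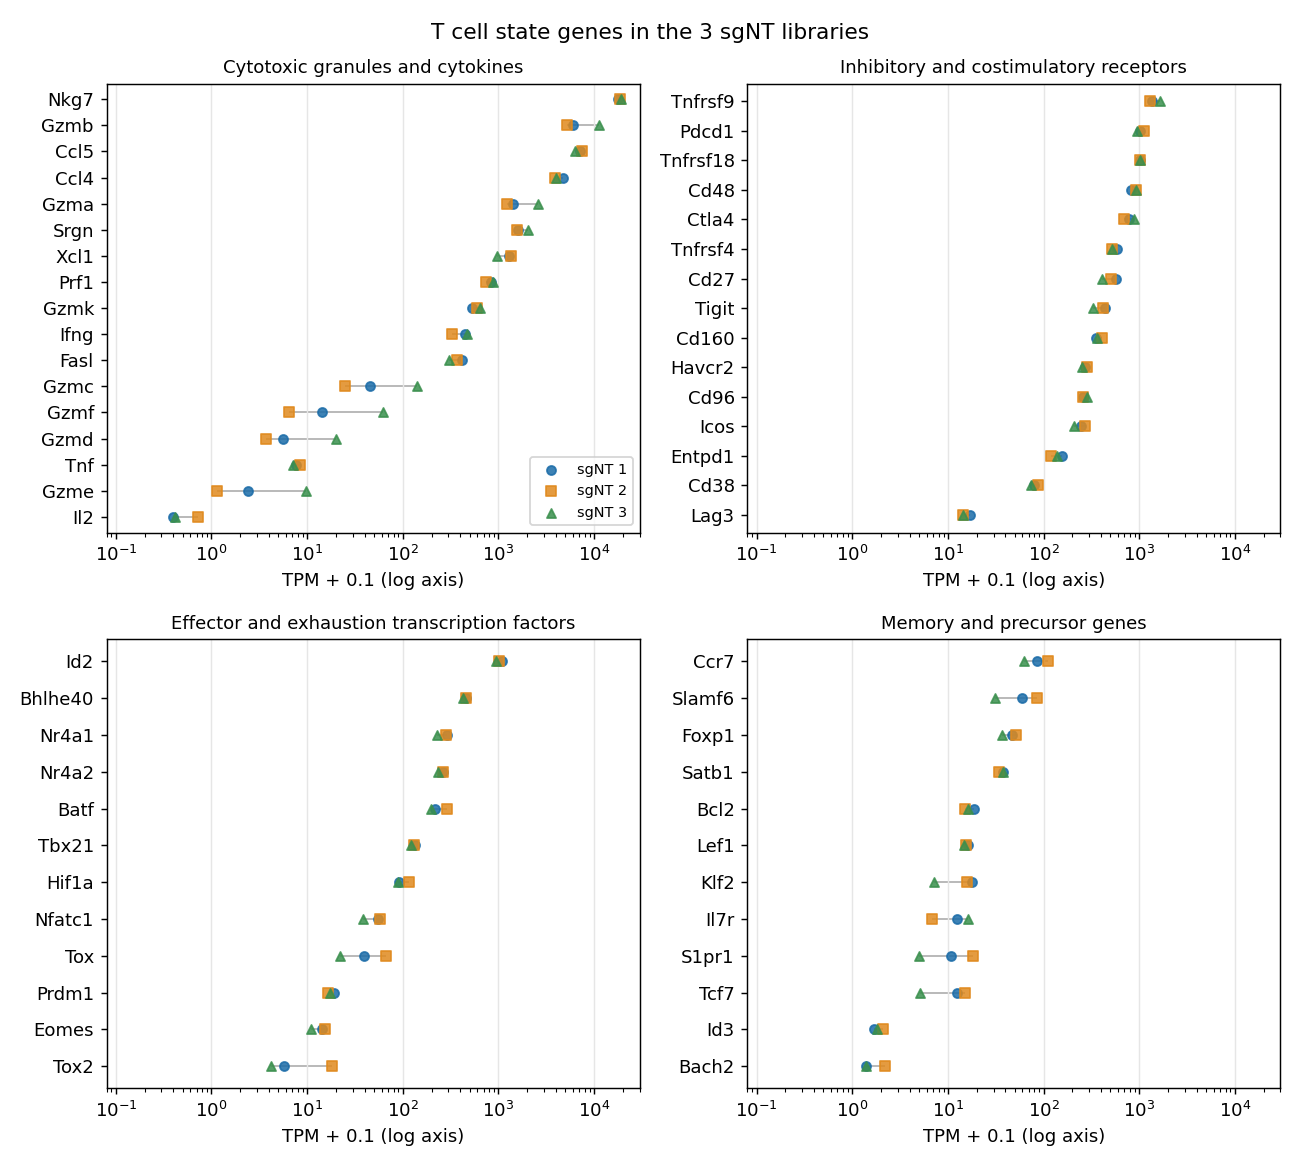
TPM + 0.1 on log axes for genes of granules and cytokines, receptors, transcription factors and memory in the 3 sgNT libraries, 1 symbol per library. The rare granzymes are rightmost in sgNT 3 (Gzmc 140.7 TPM), Slamf6, Tcf7 and S1pr1 are leftmost there, and the receptors from Tnfrsf9 to Lag3 nearly coincide.

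Homing, adhesion and residency genes summed to 9585, 9135 and 9715 TPM. Cxcr6, the receptor of CXCL16, was the highest at 2313, 2334 and 1720 TPM, 14.6-fold above Cxcr3 (177.8, 182.6 and 92.5 TPM). Ccr8 stood at 253.0, 346.7 and 169.0 TPM and the residency marker Cd69 at 318.5, 282.8 and 180.0 TPM. All 4 were lowest in sgNT 3. This did not hold for the list as a whole. Of its 21 members of at least 1 TPM, 12 were lowest in sgNT 3, near the share of 51.2% of all genes. Itgae, the CD103 integrin of resident cells, was low at 12.7, 20.9 and 7.67 TPM. Ly6c2 (1655, 1242 and 2308 TPM) and Ly6a (1488, 1278 and 2221 TPM), surface proteins that interferon induces, were highest in sgNT 3. Interferon stimulated genes summed to 1719, 1564 and 1915 TPM, and of the 17, 13 were highest in sgNT 3 (23.7% of all genes), among them Isg15 at 40.6, 37.0 and 76.8 TPM. The 9 genes of MHC class I presentation summed to 20701, 20533 and 23116 TPM.

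Killer cell lectin-like receptors, known from NK cells and late effector T cells, summed to 2566, 1980 and 2449 TPM. Klrd1 (CD94) had 818.3, 523.9 and 768.1 TPM and Klrc1, its inhibitory partner NKG2A, 741.3, 615.7 and 700.8 TPM. Klrk1, the activating receptor NKG2D, was at 681.1, 551.7 and 661.0 TPM. All 3 were lowest in sgNT 2. Klrg1, a marker of terminal effectors, was at 29.1 ± 3.07 TPM. Of Klrc1, 14.6% of the 100-base windows also occur in Klrc2, so a part of their counts was divided by estimate.

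Cytokine receptors summed to 4816, 4779 and 4425 TPM and were led by chains of the IL-2 and IL-15 receptors. Il2rg, the common γ chain, was at 2175, 2228 and 1969 TPM and Il2rb at 1034, 935.2 and 927.1 TPM, while Il2ra had 41.6, 28.2 and 41.7 TPM. Ifngr1 stood at 849.4 ± 21.4 TPM and Il21r at 261.0 ± 17.6 TPM.

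Cell cycle genes were expressed in all libraries. DNA replication genes summed to 1927, 2419 and 1865 TPM, and 15 of the 17 were highest in sgNT 2, against 48.9% of all genes. Mcm6, a subunit of the replicative helicase, was at 268.1, 361.7 and 217.2 TPM, and Pcna, the sliding clamp of DNA polymerases, at 324.9, 375.5 and 335.3 TPM. Mitosis genes summed to 2765, 3149 and 2647 TPM, and of the 17, 11 were highest in sgNT 2 and 14 lowest in sgNT 3. Stmn1, a regulator of microtubules, led at 1072, 1249 and 1082 TPM, and the kinase Cdk1 reached 117.5, 121.8 and 142.6 TPM. Mki67, which encodes the proliferation antigen Ki-67 and has a long mRNA, was at 5.84, 6.42 and 5.13 TPM. Above 500 bases, levels fell with mRNA length over the protein-coding genes with a mean of at least 1 TPM. The median was 103.5 TPM for genes of 500 to 1000 bases and 12.1 TPM for 2000 to 4000 bases. It was 4.02 TPM for 4000 to 8000 bases and 1.78 TPM for the 33 genes over 8000 bases. Mki67, with 10061 bases, belongs to the last class and was above its median in every library.

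Glycolysis was the most abundant of the pathways of carbon metabolism. Its 21 genes summed to 25279, 24251 and 26749 TPM, or 2.54% of all TPM, with a coefficient of variation of 4.94%. Gapdh stood at 5472, 5264 and 6976 TPM, Eno1 at 5035, 4794 and 4259 TPM and Ldha at 3852, 3749 and 4588 TPM. Ldha, which favours lactate formation, exceeded Ldhb (3.56 ± 0.40 TPM) by 1141-fold. The hexokinase was mostly Hk1 (56.2, 64.6 and 62.0 TPM), 10.8-fold above Hk2 (5.32, 5.45 and 6.1 TPM). The glucose transporters Slc2a3 (59.1, 44.6 and 63.9 TPM) and Slc2a1 (51.5, 44.1 and 53.0 TPM) overlapped in their ranges. Lactate export was led by Slc16a3 (MCT4), 3.04-fold above Slc16a1 (MCT1). Of the 100-base windows, 20.9% of those of Gapdh and 20.4% of those of Eno1 occur in other genes, so their counts were in part divided by estimate. The 7 genes of the pentose phosphate pathway summed to 800.5, 864.5 and 809.4 TPM, led by Taldo1 (357.0 ± 28.2 TPM).

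Mitochondrial pathways were steady in their nuclear genes and less so in the mitochondrial ones. Pyruvate oxidation and the TCA cycle summed to 3739, 4243 and 3658 TPM, led by Mdh2 (806.5, 943.2 and 737.8 TPM), and 18 of its 21 genes were highest in sgNT 2. The 37 nuclear subunits of complex I summed to 13192, 13104 and 14541 TPM and the 34 of complexes III, IV and V to 22980, 22440 and 24794 TPM. Their highest members were Ndufa1 (1439 ± 192 TPM) and Atp5b (1900 ± 185 TPM). The subunits encoded in mitochondria summed to 9541, 5180 and 4998 TPM, so sgNT 1 was the highest here. With 6 near-identical copies on chromosome 1 added, to which reads of these genes can be assigned, the sum was 14782, 7364 and 7253 TPM, and sgNT 1 was again the highest. mt-Atp6 and its copy had 2908, 1599 and 1565 TPM together. mt-Co1 and its copy had 3347, 1387 and 1455 TPM together, of which 1122, 464.7 and 462.8 TPM were listed for mt-Co1 itself. The nuclear long non-coding RNA Malat1 was also highest in sgNT 1, at 2374, 778.0 and 1111 TPM, as was the sum of the 7 nuclear RNAs (2409, 795.0 and 1132 TPM), and their part in this difference was not tested.

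Genes of fatty acid oxidation were more abundant than those of fatty acid synthesis. The oxidation genes summed to 1908 ± 88.1 TPM, with the electron transfer flavoprotein Etfb (500.1 ± 46.3 TPM), Hadhb (207.7 ± 25.9 TPM) and Acaa2 (176.3 ± 9.22 TPM) in front. Acadl, a long-chain acyl-CoA dehydrogenase, was among the 10 steadiest genes of at least 10 TPM, at 149.6, 148.7 and 150.3 TPM. The carnitine transferase that admits fatty acids to mitochondria was Cpt1a, at 10.8, 9.18 and 10.2 TPM, while Cpt1b had 0, 0.38 and 0.07 TPM. Synthesis and desaturation genes summed to 134.9 ± 13.4 TPM. These lists hold 19 and 13 genes, and their median members were at 51.0 TPM for oxidation and 3.32 TPM for synthesis. Among members of at least 1 TPM, the median length was 1810 bases for oxidation and 3250 bases for synthesis. The part of length in this contrast was not tested. Acly, which makes cytosolic acetyl-CoA, was at 44.3, 58.3 and 40.5 TPM, and Fasn, the fatty acid synthase, at 3.22, 7.54 and 4.55 TPM. The carboxylase Acaca had 2.05, 0.94 and 1.11 TPM. Of the stearoyl-CoA desaturases, Scd2 (3.9, 4.07 and 6.72 TPM) was above Scd1, which stayed under 0.3 TPM in each library.

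Elovl1, the gene targeted in the other arm, was the highest elongase gene of these cells, and the 13 elongation genes summed to 1175, 1253 and 1130 TPM. With a mean of 265.8 TPM it was 5.05-fold above Elovl5 (52.5 ± 4.47 TPM), which acts on polyunsaturated chains, and Elovl6 had 4.93 ± 0.46 TPM. The other elongases Elovl7, Elovl4, Elovl3 and Elovl2 were each under 1 TPM in every library. Tecr, the reductase of the last elongation step, was at 627.5, 659.1 and 626.2 TPM. Of the ceramide synthases, which attach fatty acids to the sphingoid base, Cers2 (211.5, 217.5 and 181.2 TPM) exceeded Cers5 (93.6, 97.0 and 64.2 TPM) 2.43-fold. Cers2 uses the very long chains that ELOVL1 makes. Cers4 (34.0 ± 7.86 TPM) and Cers6 (10.4 ± 2.53 TPM) were lower, and Cers1 and Cers3 had 0 TPM in all 3 libraries. The family summed to 352.7, 364.2 and 281.4 TPM.

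Genes of cholesterol synthesis were detected throughout the pathway. All 20 genes exceeded 1 TPM, 16 exceeded 10 TPM, and the sum was 919.5, 1010 and 1050 TPM. Fdps, the farnesyl diphosphate synthase, led at 224.1, 246.2 and 305.4 TPM, followed by Ebp at 137.2, 154.4 and 139.4 TPM. Sqle, the squalene epoxidase, was at 45.4, 49.6 and 36.5 TPM. Their regulator Srebf2 stood at 38.9, 41.5 and 48.3 TPM, 1.66-fold above Srebf1 (19.9, 28.1 and 30.4 TPM). Of the proteins that retain SREBP2 in the endoplasmic reticulum, Insig2 (84.8, 66.1 and 59.5 TPM) was above Insig1 (8.82, 7.46 and 10.5 TPM). Sterol control, uptake and efflux genes summed to 364.5, 343.2 and 322.2 TPM, and the efflux pump Abca1 had at most 0.03 TPM. Soat1, which esterifies cholesterol, was at 24.6 ± 5.63 TPM.

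**Figure D3:**
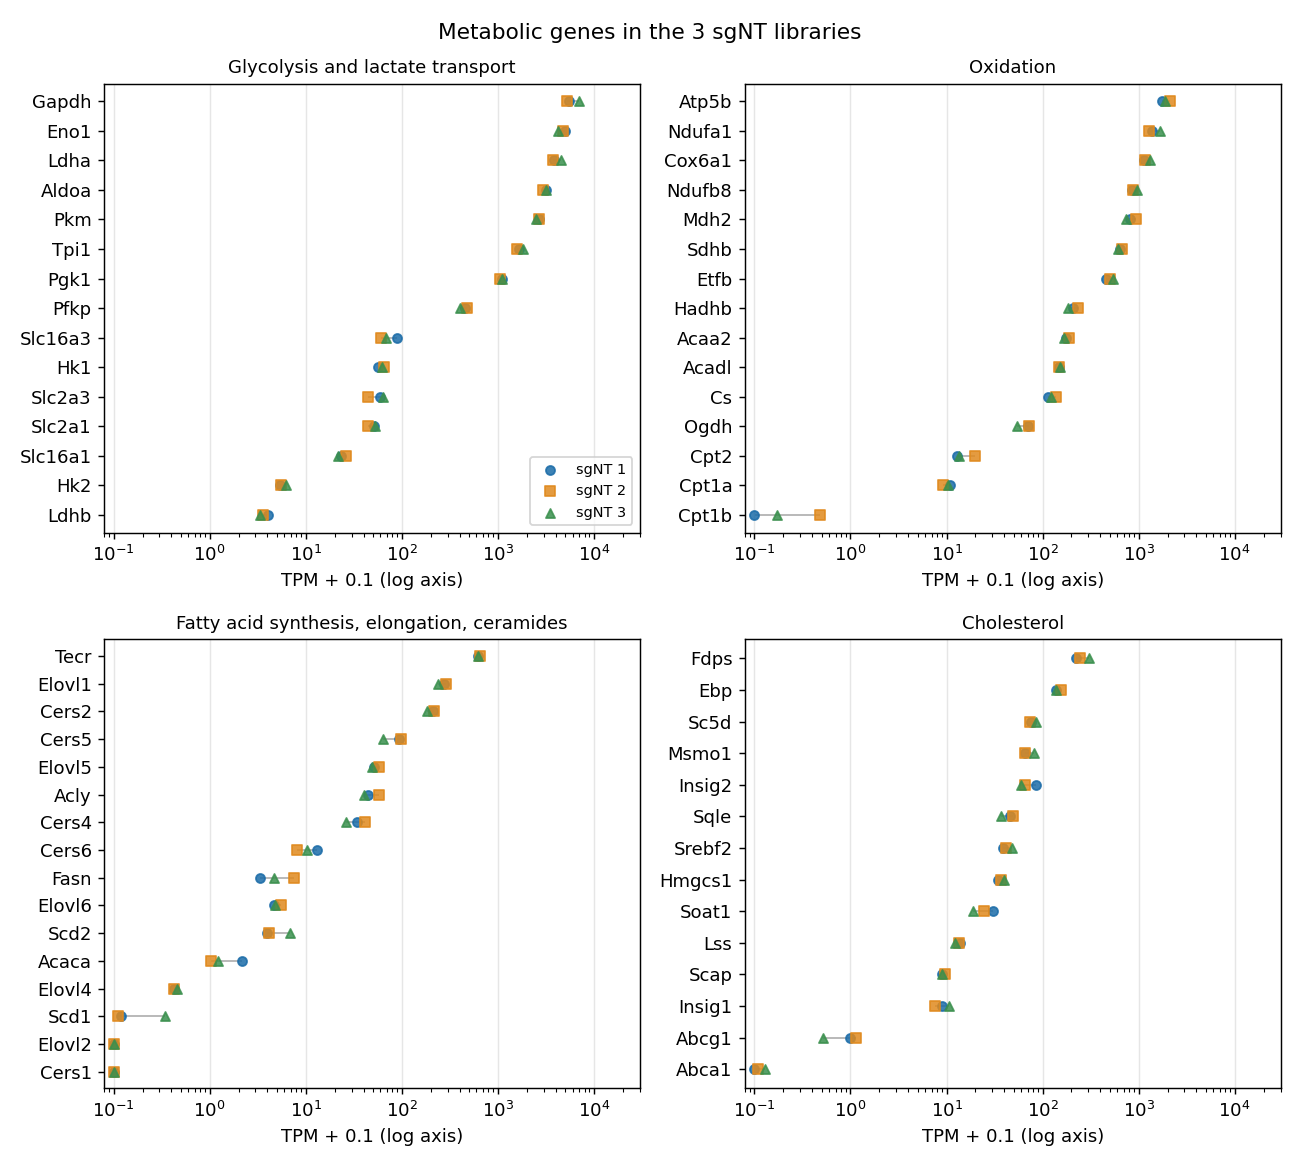
TPM + 0.1 on log axes of metabolic genes in the 3 sgNT libraries, 1 symbol per library. Glycolytic enzymes from Gapdh to Pgk1 lie above 1000 TPM, Elovl1 and Cers2 lead their families, and Cpt1b, Scd1 and Abca1 lie near 0.

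Amino acid transport and one-carbon genes summed to 1782, 1964 and 1751 TPM. Slc3a2, the common chain of several amino acid transporters, stood at 385.1, 413.0 and 422.1 TPM, the glutamine carrier Slc1a5 at 233.3, 212.6 and 160.2 TPM and Phgdh, the entry enzyme of serine synthesis, at 175.5, 218.1 and 172.1 TPM. Iron and redox genes summed to 6851, 6751 and 7599 TPM, most of it ferritin, with Ftl1 at 2334 ± 16.1 TPM and Fth1 at 2230 ± 225 TPM, whereas the transferrin receptor Tfrc had 9.81 ± 2.32 TPM. Of the windows of Ftl1, 34.4% are found in other genes. The 77 cytosolic ribosomal proteins summed to 51123, 47452 and 55502 TPM, 5.14% of all TPM, and 58 were highest in sgNT 3. These mRNAs are short (median 668 bases, against 2018 bases for all genes of at least 1 TPM), and short genes as a whole were higher in sgNT 3. For protein-coding genes of 500 to 1000 bases the median log2 deviation of sgNT 3 from the mean was 0.06, and for 2000 to 4000 bases it was -0.11. The part of length in the ribosomal protein values was not tested.

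Markers of most other cells were low, apart from the epithelial ones in sgNT 3. There, the keratins Krt19 (6.7, 4.72 and 296.0 TPM), Krt18 (9.82, 4.4 and 189.4 TPM) and Krt8 (6.87, 3.25 and 186.5 TPM) were 26.6-fold to 51.8-fold above the mean of the others. Of the 9 epithelial markers, 8 reached 1 TPM in the mean and all 8 were highest in sgNT 3, Krt7, Muc1 and Msln included. Without sgNT 3 the 9 epithelial markers averaged 35.2 ± 4.43 TPM (n = 2). A few genes from the lists for B cells and for γδ T and NK cells were present in all libraries: Ighm at 210.3, 300.2 and 121.3 TPM, Fcer1g at 145.8, 74.4 and 289.5 TPM and Trdc at 77.5, 79.0 and 65.0 TPM. The defining B cell gene Ms4a1 was at most 0.02 TPM. The 7 B and plasma cell markers summed to 232.3, 335.7 and 132.6 TPM and the 5 γδ T and NK cell markers in the tables to 236.6, 157.7 and 377.1 TPM, most of it from these 3 genes, while the NK gene Ncr1 was at most 0.14 TPM. The 8 neutrophil markers summed to at most 1.83 TPM, the 9 fibroblast markers to at most 0.32 TPM and the 7 erythroid and platelet markers to at most 0.93 TPM. The 12 macrophage markers summed to 47.3, 66.9 and 73.5 TPM, most of it Cd68 (44.2 ± 6.99 TPM), while Adgre1 was 0 in all 3. The 8 dendritic cell and MHC class II genes summed to 89.9, 99.3 and 144.8 TPM, led by H2-Ab1 (44.8, 40.1 and 60.3 TPM). Acinar and islet markers summed to 29.8, 38.4 and 29.7 TPM, mostly Cela1 (20.7 ± 2.48 TPM), and the endothelial list to 12.3 ± 0.30 TPM, nearly all of it Pecam1, with Cdh5 at 0. The CD4 and regulatory T cell list summed to 5.04, 4.0 and 2.18 TPM, of which Foxp3 had 3.89, 2.13 and 1.19 TPM.

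**Figure D4:**
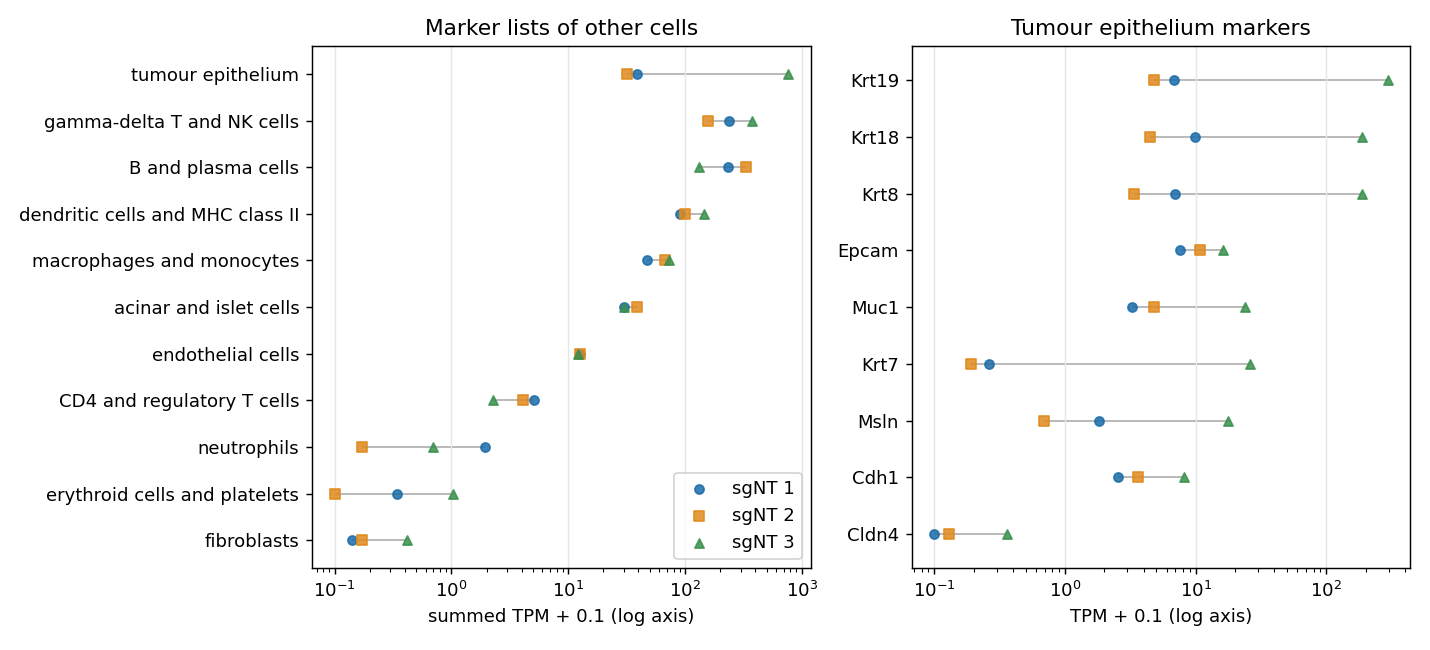
Marker RNA of other cells in the 3 sgNT libraries, as summed TPM + 0.1 per list (left) and TPM + 0.1 per tumour epithelium marker (right), on log axes. The epithelial sum of sgNT 3 (763.9 TPM) lies far from those of sgNT 1 and 2, and fibroblast and erythroid markers lie near 0.

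The genes that varied most included several of the epithelium. Of the 10 largest SDs of log2(TPM + 1) among genes of at least 10 TPM, all belonged to genes that were highest in sgNT 3. Prap1 (93.8 TPM), Lypd8 (58.6 TPM) and Agr2 (40.6 TPM), which are known from secretory epithelia, were at 0 in both other libraries. Nupr1 (1.49, 1.3 and 127.3 TPM), Clu (27.9, 4.19 and 319.8 TPM), Krt20 (2.88, 0.1 and 54.5 TPM) and Tspan8 (0.15, 0.19 and 32.6 TPM) completed the 10 with the 3 keratins above. In all, 174 of the 6189 genes of at least 10 TPM (2.81%) varied by more than 2-fold. Genes at 0 in a library, such as Prap1, Lypd8 and Agr2, have no ratio and are not in this count. They are included in the 10.8% given above for genes of at least 1 TPM. Hypoxia response genes also stood out, with a sum of 2631, 2284 and 3026 TPM and 10 of 12 highest in sgNT 3. Adm had 0.04, 0.04 and 6.15 TPM, Car9 1.72, 0.78 and 5.49 TPM and Ndrg1 23.5, 14.1 and 57.9 TPM, and Bnip3 followed with 346.3, 218.9 and 388.1 TPM. Their cell of origin was not tested.

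Genes that set sgNT 1 or sgNT 2 apart were of several kinds. Cotl1, an actin-binding protein, was at 62.0 TPM in sgNT 1 against 390.6 and 223.7 TPM, and the zinc finger gene Zfp950 at 7.18 TPM against 22.2 and 21.2 TPM. In sgNT 2, Klhdc1 had 3.83 TPM against 15.5 and 14.3 TPM, and Tyrobp, a signalling adaptor of NK and myeloid cells, had 2.96 TPM against 12.1 and 20.0 TPM. The steadiest genes of at least 10 TPM included Rpp21 (136.3, 136.0 and 136.1 TPM), Clic1 (1165, 1168 and 1174 TPM), Tmed10 (244.2 ± 1.43 TPM), Cope (500.1 ± 3.54 TPM), Bag2, B4gat1 and Morf4l2.

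Seen by gene list, the libraries differed along a few axes. sgNT 3 was highest for granule, interferon and hypoxia genes, with median log2 deviations of 0.22, 0.23 and 0.24, against -0.07 for all genes of at least 1 TPM. Its lowest values were those of mitochondrially encoded genes (-0.39), memory and precursor genes (-0.27), ceramide synthases (-0.26) and early response genes (-0.24). The early response genes, of which the sum was 4559, 4673 and 3139 TPM, include Hspa8 (2666, 2759 and 1599 TPM), the largest part of this sum, and Dusp1 (368.6, 399.2 and 208.7 TPM). Of the 15 members, 9 were lowest in sgNT 3 and 6 were highest there, among them Fos (48.2, 38.5 and 91.1 TPM) and Atf3 (13.1, 9.73 and 31.6 TPM). Of the windows of Hspa8, 28.2% occur in other genes. sgNT 2 was highest for memory genes (0.30) and DNA replication (0.24), against 0.07 for all genes. sgNT 1 was highest for mitochondrially encoded genes (0.59) and nuclear long non-coding RNAs (0.58), against 0.003 for all genes. The medians of inhibitory receptors, costimulatory receptors and the TCR complex stayed within 0.08 in every library, as did the median of all genes of at least 1 TPM.

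**Figure D5:**
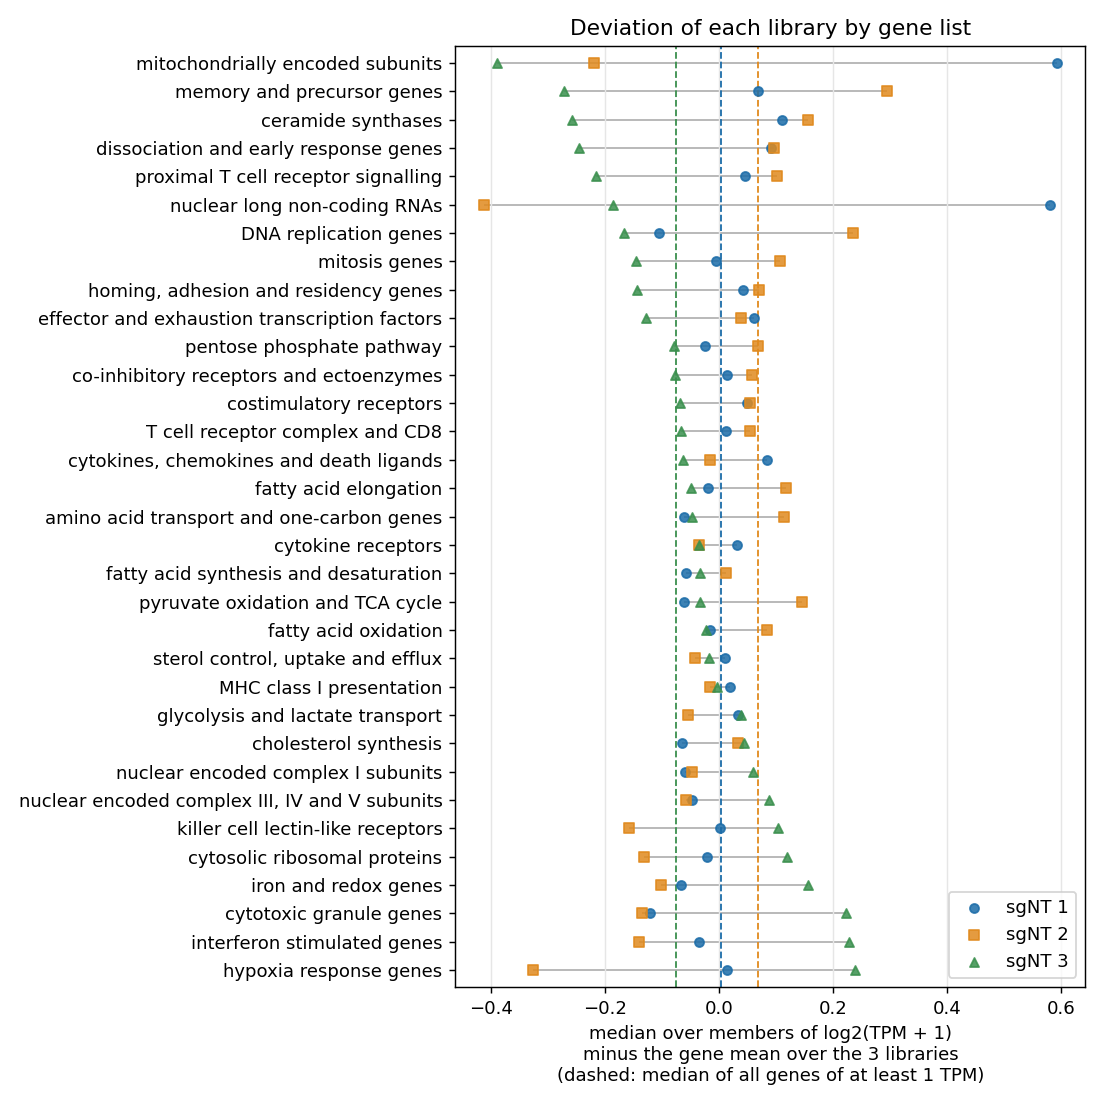
Median deviation of each sgNT library from the mean of the 3, over the members of each gene list with at least 1 TPM, on the log2(TPM + 1) scale. Dashed lines give the median over all genes of at least 1 TPM (0.003, 0.07 and -0.07 for sgNT 1 to 3). Symbols of most lists lie near these lines, and those of mitochondrial, memory, granule and hypoxia genes lie apart from them.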

How the data were processed

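Reads from SMARTer pre-amplified poly(A) RNA, sequenced as 150-base pairs, were mapped to mm10 with STAR 2.7.7a and quantified with RSEM 1.3.1 per the submitters' processing notes, which also name DESeq2 1.36.0. The annotation release is not given in the sources used here. The deposited gene tables hold expected counts, which RSEM estimates per gene and does not scale between libraries, and TPM, which the authors' RSEM run computed from them with effective transcript lengths. Effective lengths, not checked against fragment sizes, act most on short genes. Of 55471 gene IDs, 55230 matched GENCODE M21 (GRCm38, the assembly of mm10), which gave symbols and coordinates.

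Genes were ranked by mean TPM over the 3 sgNT libraries, and a gene counted as expressed from a mean of 1 TPM. Spread was the SD of log2(TPM + 1) and, on rounded expected counts after filterByExpr (minimum count 10, 11437 genes) and TMM, the biological coefficient of variation of edgeR 4.0.16 in R 4.3.3, tested on simulated data. Levels were summed over 33 gene lists and 12 cell type lists. Named were the 30 highest genes outside mitochondrial, ribosomal protein, predicted, pseudogene and small RNA names, the 5 highest members of each list with others needed for the order within a family, the 10 largest and 10 smallest spreads among genes of at least 10 TPM, and the 5 genes that set each library apart most; not all are printed. Sharing of 100-base windows between GENCODE M21 transcripts was counted exactly. Promoter windows came from RefSeq. Members, lists and motifs were chosen with earlier results of these data known, and the CRE motif after the windows were seen. The labels' genotype entry mentions a CRISPR library, while titles and design text name a guide per group; the titles were followed. No pair of libraries held identical values. Depth was 24121976 to 26165380 expected counts, so that a gene with under 10 counts, such as Il2 in 2 libraries, has a large counting error. Some genes are not reported here.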

Additional observations from a re-analysis of the deposited data

How the results depend on the processing

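No paired analysis was possible because the results describe 1 group and come from no test. Rescaled over protein-coding genes, and with expected counts divided by the deposited gene length in place of RSEM's effective length, the summed levels were 42667 and 27912 TPM for the TCR complex, 17990 and 12390 for cytokines, 4139 and 4466 for inhibitory receptors, 3346 and 3641 for effector transcription factors, 27898 and 29847 for glycolysis and 1089 and 1177 for cholesterol synthesis. With the deposited length the memory list was at 420.2 TPM. The order of the 33 lists hardly moved (Spearman's rho at least 0.99 across lists). Short genes lose most with the deposited length, and log2 ratios then were 2.35 for Gzmb to Gzma, 1.86 for Pdcd1 to Havcr2, 0.42 for Ccl5 to Ccl4, 2.26 for Ccl4 to Ccl3 and 2.14 for Elovl1 to Elovl5. A pseudocount of 1 TPM gave log2 ratios of 8.52 for Id2 to Id3, 3.23 for Hk1 to Hk2, 9.80 for Ldha to Ldhb and 2.41 for Scd2 to Scd1. The 100 highest genes took 32.1% of protein-coding TPM, 31.5% with the deposited length and 25.6% of CPM without a length. Without a filter 18846 genes had some TPM and the biological coefficient of variation was 0.344. Elovl1 was 3.22-fold higher in sgNT by TMM-normalised CPM, against 2.85-fold by TPM. Adding the 6 copies of mitochondrial genes on chromosome 1, chosen after seeing the data, gave 9800 TPM for the mitochondrial subunits. No ratio changed its direction. Leaving out a library cannot move a mean of 3 by more than their SD and is no check of stability. Over these settings the epithelial level ranged from 35.2 TPM (without sgNT 3) to 401.1 TPM, against 278.1 TPM over all 3, and the nuclear long non-coding RNAs from 963.5 TPM (without sgNT 1) to 1770 TPM, against 1445 TPM. The log2 ratio of Scd2 to Scd1 ranged from 6.21 (without sgNT 2) to 8.14 (without sgNT 3), against 7.03, since Scd1 was near 0. The neutrophil (without sgNT 1), fibroblast and erythroid lists (without sgNT 3) moved by more than 1.5-fold, each under 1 TPM in the mean.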

Other observations

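The genes in these paragraphs were chosen after their values were seen. The long intergenic non-coding RNA AW112010 (chromosome 19, 11047612 to 11055808, minus strand, GRCm38) was the fourth most abundant gene of the sgNT cells, at 10386, 8537 and 12468 TPM in sgNT 1 to 3, above B2m and Gzmb in the mean. It shares no 100-base window with another gene.

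Reads were also assigned to copies of mitochondrial genes on chromosome 1. Gm28437 (24613189 to 24613971) stood at 2623, 1110 and 1100 TPM and has every 100-base window in common with mt-Co3, which had only 127.8, 41.4 and 116.5 TPM. Gm29216 had 2225, 922.6 and 992.6 TPM and shares 96.7% of its windows with mt-Co1. Counts for such sequences are divided by estimate, so the level of neither mt-Co3 nor mt-Co1 alone, nor that of the copies, can be read from these tables.

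Gm37376 (chromosome 19, 5801941 to 5802393, plus strand), an unclassified transcript, had 4081, 1356 and 1757 TPM. It lies inside Malat1 (5795690 to 5802672, minus strand), and every 100-base window of it is the complement of a window of Malat1. It was 1.72-fold, 1.74-fold and 1.58-fold the level of Malat1. Whether these counts were assigned by strand is not given in the sources used here.

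The Y-linked gene Eif2s3y had 71.9, 69.9 and 73.0 TPM in sgNT 1 to 3, and Xist had at most 0.02 TPM.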
